A study of Mus musculus with 8 samples.

Results

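The genes of cholesterol synthesis, of its control by SREBP2 and of sterol uptake and transport were followed in mouse liver after a short activation of the farnesoid X receptor (FXR), the nuclear receptor for bile acids. The set was drawn up by symbol, with earlier results of these data known. Its 29 gene symbols were looked up among the 25124 rows of the expression table, and all 29 were found once each. It holds 5 genes of the control machinery, 8 of the steps up to farnesyl and geranylgeranyl diphosphate, 12 of the steps from farnesyl diphosphate to sterols, and 4 of sterol transport. The values are RPKM, read densities scaled to gene length and library size.

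Cells make cholesterol from acetyl-CoA through mevalonate, farnesyl diphosphate, squalene and lanosterol. SREBP2, the product of Srebf2, is the transcription factor that switches on most genes of this route. It is held in the endoplasmic reticulum with SCAP, and when sterols are plentiful the INSIG proteins keep that complex from leaving for the Golgi, where SREBP2 would be cut into its active form. The liver is the main site at which cholesterol is turned into bile acids, and FXR represses that conversion when bile acids are abundant.

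RNA-seq was performed on livers of C57BL/6 mice that were fasted overnight and treated for 1 h with vehicle or with 30 mg/kg of GW4064, a synthetic ligand that activates FXR. Each treatment has 2 libraries, and each library pools liver RNA of 2 mice. GRO-seq, which labels RNA as engaged polymerases extend it in isolated nuclei and so measures transcription in progress, was performed with the same fast, dose and time in male Fxr-Flox mice, labelled WT, and in mice with FXR deleted in the liver (Fxr-LKO, labelled FXR KO), with 1 library for each genotype and treatment. The knockout comes from crossing Fxr-Flox mice with Albumin-Cre mice, so the deletion is limited to cells that use the albumin promoter and other liver cells keep the gene. The vehicle is DMSO in the labels and corn oil in the methods of the study, and ages are not given in the sources used here. In whole liver, fewer cells of a type and less RNA per cell cannot be told apart.

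The RNA-seq libraries rest on 13924456 to 14047235 reads, as rebuilt from the steps of the RPKM values. The GRO-seq libraries rest on 14173735 reads in Fxr-Flox vehicle, 10593324 in Fxr-Flox GW4064, 5141672 in FXR KO vehicle and 5069398 in FXR KO GW4064, so counting error is larger in the knockout. The row of Nr1h4, which encodes FXR, spans the whole gene, undeleted parts included, and does not check the deletion: its GRO-seq level was 15.1 RPKM in Fxr-Flox vehicle, 4.23 in Fxr-Flox GW4064, and 16.7 and 20.6 RPKM in the knockout libraries. FXR target genes were low in both knockout libraries. Abcb11, the bile salt export pump, was at 4.61 RPKM in GRO-seq of Fxr-Flox vehicle and 56.0 with GW4064, against 1.204 and 1.58 RPKM in the knockout. Nr0b2, which encodes the corepressor SHP, was at 3.65 and 36.6 RPKM against 0.118 and 1.19 RPKM, the latter on 2 and 20 reads. In RNA-seq, Abcb11 rose from a mean of 5.15 to 27.1 RPKM (limma, adjusted p = 0.010), and Nr1h4 fell from 9.24 to 3.81 RPKM (limma, adjusted p = 0.0149).

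In vehicle-treated liver, the control gene Insig1 had the highest RNA-seq level of the set, at a mean of 10.7 RPKM, followed by Insig2 at 10.2, Sc5d at 9.56, Ebp at 7.56 and Tm7sf2 at 6.72. Insig1 and Insig2 did not differ beyond the spread of the libraries, since both Insig1 values, 10.6 and 10.8, lay between the Insig2 values of 8.18 and 12.2. Sc5d, Ebp and Tm7sf2, enzymes of late sterol steps, did not overlap each other. At the low end stood Nsdhl at 0.413, Idi1 at 0.448, Mvd at 0.553 and Mvk at 0.572 RPKM, with Nsdhl overlapping Idi1 and Mvd overlapping Mvk. Npc1l1, the intestinal cholesterol absorption protein, was at 0 or 0.004 RPKM in every RNA-seq library. The rows cover introns as well as exons, so a long gene with short exons has a lower value here than its mature RNA alone would give.

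**Figure D1:**
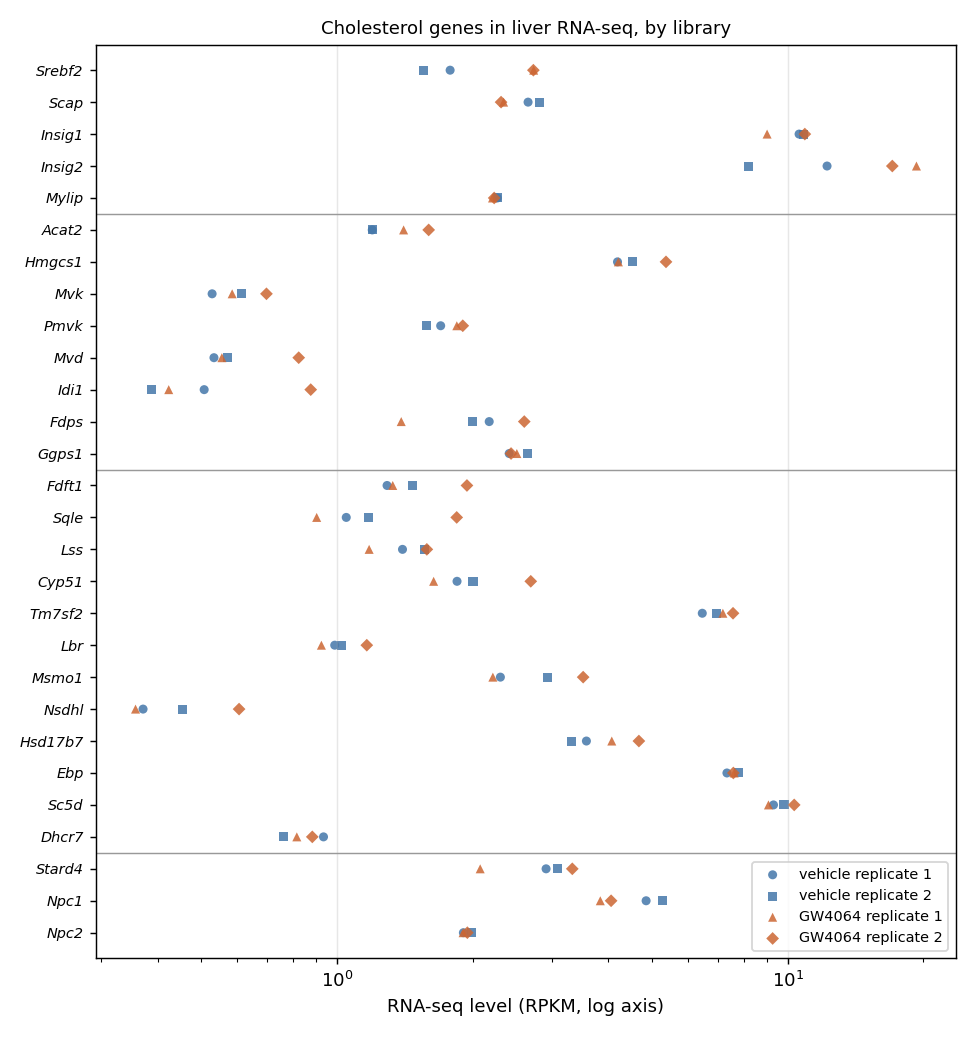
RNA-seq level of 28 of the 29 genes in each of the 4 libraries (RPKM, log axis), grouped from the top into control, mevalonate, sterol and transport genes, with Npc1l1 left out because it is at or near 0. Circles and squares are the vehicle libraries, triangles and diamonds the GW4064 libraries; both GW4064 points of Srebf2, at 2.73, lie above both vehicle points, and in most enzyme genes the diamond lies right of the triangle.

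Of the control genes, Srebf2 was the one that passed the RNA-seq test. Srebf2 (chr15:82147269-82204960, plus strand, mm10) measured 1.78 and 1.56 RPKM in the vehicle libraries and 2.73 and 2.73 RPKM in the GW4064 libraries. The GW4064 libraries were nearly identical and both were above both vehicle libraries. The fitted change was 0.68 on the log2(RPKM + 0.1) scale (SE 0.08, 95% interval 0.45 to 0.91), a 1.60-fold rise with an adjusted p of 0.0432 in limma. In limma-voom on the rebuilt reads the change was 0.71 and the adjusted p 0.00599. The limma call was lost when any 1 library was left out, with an adjusted p from 0.125 to 0.201 and a log2 change from 0.59 to 0.77, and it was also lost with a lower expression filter (adjusted p = 0.0606) and with eBayes at trend=FALSE (adjusted p = 0.0566). The row also contains Mir33, a microRNA within Srebf2 whose 68 bases had no reads in any RNA-seq library.

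Srebf2 also had a higher GRO-seq level with GW4064 in Fxr-Flox, at 1.68 RPKM against 1.23 RPKM with vehicle. The knockout libraries were at 1.27 with GW4064 and 1.29 with vehicle. The Fxr-Flox ratio was 1.37-fold (95% counting interval 1.25 to 1.49) and the knockout ratio 0.982 (0.849 to 1.14). These intervals cover the counting of reads only, since each genotype and treatment has 1 library, and the difference between the genotypes was not tested. The Fxr-Flox ratio stayed below the 1.5-fold mark used for GRO-seq.

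Insig2 showed the largest GW4064 to vehicle ratio of the set in GRO-seq. Insig2 (chr1:121304353-121327678, minus strand), an anchor that retains SCAP and SREBP2, measured 6.15 RPKM in Fxr-Flox vehicle and 25.9 RPKM in Fxr-Flox GW4064, on 2034 and 6403 reads. In the knockout it measured 5.66 RPKM with vehicle and 5.78 RPKM with GW4064, on 679 and 683 reads. The GW4064 to vehicle ratio was therefore 4.21-fold in Fxr-Flox (counting interval 4.01 to 4.43) and 1.02-fold in the knockout (0.916 to 1.14), and the 3 libraries other than Fxr-Flox GW4064 lay between 5.66 and 6.15 RPKM. In RNA-seq, Insig2 measured 12.2 and 8.18 RPKM with vehicle and 19.3 and 17.1 RPKM with GW4064. Both GW4064 libraries were higher, but the vehicle libraries differed widely and the gene did not pass the test: the log2 change was 0.85 (SE 0.22, 95% interval 0.23 to 1.48) with an adjusted p of 0.156 in limma and 0.0532 in limma-voom.

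Insig1, the paralogue of Insig2 and itself a classical SREBP2 target, behaved differently. Insig1 (chr5:28071412-28078662, plus strand) measured 10.6 and 10.8 RPKM with vehicle and 9.004 and 10.9 RPKM with GW4064 in RNA-seq, so the groups overlapped, with a log2 change of -0.11 (SE 0.11, limma, adjusted p = 0.627). In GRO-seq it was at 5.12 RPKM in Fxr-Flox vehicle, 4.43 in Fxr-Flox GW4064, 9.12 in FXR KO vehicle and 11.3 in FXR KO GW4064. The treatment ratio was 0.865 in Fxr-Flox (counting interval 0.752 to 0.993) and 1.24 in the knockout (1.07 to 1.43), on opposite sides of 1. With the median of all ratios set to 0, the Fxr-Flox interval was 0.805 to 1.06 and reached across 1, and the knockout interval was 1.09 to 1.46. Both knockout libraries were above both Fxr-Flox libraries.

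Scap and Mylip complete the control group. Scap (chr9:110333288-110384949, plus strand), the sterol sensor that escorts SREBP2, measured 2.65 and 2.81 RPKM with vehicle and 2.34 and 2.31 RPKM with GW4064 in RNA-seq. The groups did not overlap, but the log2 change of -0.22 (SE 0.06) had an adjusted p of 0.151 in limma and 0.0695 in limma-voom. In GRO-seq Scap was at 1.40 and 1.37 RPKM in Fxr-Flox and at 2.51 and 1.80 RPKM in the knockout, vehicle first. Mylip, a ubiquitin ligase that removes lipoprotein receptors, lay between 2.21 and 2.27 RPKM in all 4 RNA-seq libraries, and its GRO-seq ratio was 1.30 in Fxr-Flox (1.15 to 1.48) and 1.02 in the knockout (0.842 to 1.23).

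**Figure D2:**
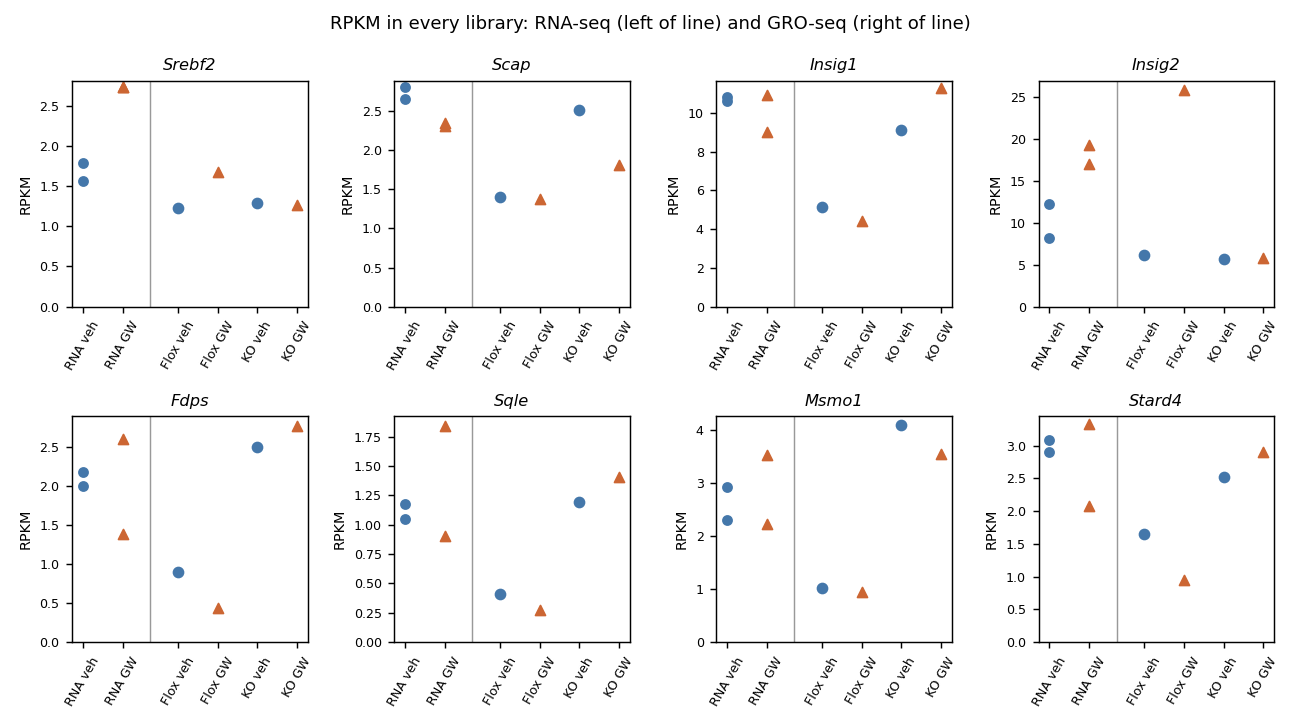
Level of 8 genes in every library (RPKM, each panel with its own linear axis from 0), RNA-seq left of the line with 2 libraries per treatment and GRO-seq right of it with 1 library per group; circles are vehicle and triangles GW4064. Insig2 reaches 25.9 RPKM in GRO-seq of Fxr-Flox with GW4064 alone, while Insig1, Fdps, Sqle and Msmo1 are higher in both knockout libraries than in both Fxr-Flox libraries.

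The enzymes of the pathway gave no call in RNA-seq. Expression of 27 of the 29 genes passed the filter of a mean of 0.5 RPKM; Nsdhl and Npc1l1 did not. Over the 27 genes, limma called 1 higher (Srebf2) and 0 lower at an adjusted p under 0.05, where 2.13% of all 11408 genes tested were called higher and 1.15% lower, and 7 of the 27 had an unadjusted p under 0.05, as had 21.2% of all genes. Limma-voom called 1 higher and 1 lower (Npc1), against 4.58% and 4.22% of all genes. The GW4064 libraries were both above both vehicle libraries in 6 of the 27 (26.0% of all genes) and both below in 3 of the 27 (28.1% of all genes), so neither share stood above the background.

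Among the 8 genes from acetyl-CoA to geranylgeranyl diphosphate, 6 had a log2 change above 0 and 2 below, with a median of 0.16 and adjusted p from 0.162 to 0.866. Acat2, which condenses acetyl-CoA, measured 1.197 and 1.196 RPKM with vehicle and 1.41 and 1.60 RPKM with GW4064, a log2 change of 0.30 (SE 0.08, limma, adjusted p = 0.162). Pmvk, the phosphomevalonate kinase, changed by 0.18 (SE 0.06, limma, adjusted p = 0.22). Intervals for the remaining genes of this stretch covered 0. Idi1, the isopentenyl diphosphate isomerase, was at 0.507 and 0.388 RPKM with vehicle and 0.423 and 0.874 RPKM with GW4064, a log2 change of 0.39 with an interval of -0.61 to 1.40. Its high value came from GW4064 replicate 2 alone.

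Among the 11 tested genes from farnesyl diphosphate to sterols, 10 had a log2 change above 0 and 1 below, with a median of 0.10 and adjusted p from 0.173 to 0.985. Hsd17b7, a 3-ketosteroid reductase of sterol synthesis, measured 3.58 and 3.31 RPKM with vehicle and 4.07 and 4.68 RPKM with GW4064, a log2 change of 0.33 (SE 0.09, limma, adjusted p = 0.173). The one gene below 0 was Lss, lanosterol synthase, at -0.11, with 1.397 and 1.57 RPKM with vehicle and 1.18 and 1.58 RPKM with GW4064, and 44.1% of its row overlaps the antisense gene 4930483K19Rik, so their reads may be shared. The direction of many of these enzymes rested on 1 library. In 22 of the 27 genes tested, 81.5%, GW4064 replicate 2 was above GW4064 replicate 1, against 55.4% of all genes, with a median log2 difference of 0.20 against 0.02. Sqle, squalene epoxidase, shows it: 0.901 RPKM in GW4064 replicate 1 and 1.84 in replicate 2, with vehicle at 1.05 and 1.17 between them. The median log2 change of the 27 genes was 0.10, against -0.00 over all genes, and it was -0.05 without GW4064 replicate 2.

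Of the transport genes, Npc1 stood apart. Npc1 (chr18:12189694-12236386, minus strand), which moves cholesterol out of lysosomes, measured 4.85 and 5.27 RPKM with vehicle and 3.84 and 4.06 RPKM with GW4064. Both GW4064 libraries were lower, with a log2 change of -0.35 (SE 0.07, 95% interval -0.55 to -0.15) and an adjusted p of 0.107 in limma, and Npc1 fell in limma-voom (log2 change -0.36, adjusted p = 0.0318). No leave-one-out fit kept the limma-voom call, with an adjusted p from 0.0879 to 0.207. Its lysosomal partner Npc2 lay between 1.90 and 1.99 RPKM in all 4 libraries. Stard4, a carrier of sterols through the cytosol, was at 2.91 and 3.09 RPKM with vehicle and at 2.08 and 3.33 RPKM with GW4064, so the GW4064 libraries enclosed the vehicle ones.

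In GRO-seq, 23 of the 29 genes passed a mean of 0.5 RPKM over the 4 libraries and had at least 20 reads in one of the compared libraries. The 6 others were Mvk, Pmvk, Mvd, Idi1, Nsdhl and Npc1l1. Called here means past 1.5-fold after adding 0.1 RPKM to each value, with no test, since each group has 1 library. In Fxr-Flox, GW4064 was past 1.5-fold higher in 1 of 23 genes, Insig2, and lower in 2, Fdps and Stard4, where 6.40% of all 9690 genes were higher and 7.17% lower. In the knockout 0 of 23 were higher and 0 lower, where 2.88% of all genes were higher and 3.44% lower. With the median of all ratios set to 0, the split over all genes in Fxr-Flox became 818 higher and 483 lower, against 620 and 695 without centring, and the same 1 higher and 2 lower counts held for these genes.

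Fdps and Stard4 were lower in Fxr-Flox with GW4064. Fdps (chr3:89093588-89101967, minus strand), the farnesyl diphosphate synthase, measured 0.893 RPKM with vehicle and 0.439 with GW4064 in Fxr-Flox, on 106 and 39 reads, and 2.51 and 2.78 RPKM in the knockout. In RNA-seq Fdps was at 2.18 and 1.997 RPKM with vehicle and at 1.39 and 2.603 RPKM with GW4064. Its GRO-seq treatment ratio was 0.492 in Fxr-Flox (counting interval 0.332 to 0.717) and 1.11 in the knockout (0.846 to 1.45). Stard4 measured 1.65 and 0.955 RPKM in Fxr-Flox and 2.52 and 2.91 RPKM in the knockout, with ratios of 0.578 (0.474 to 0.702) and 1.15 (0.944 to 1.41). For both genes the Fxr-Flox interval lay below 1 and the knockout interval covered 1. Counting intervals of 9 of the 23 genes lay below 1 in Fxr-Flox, where those of 34.4% of all genes did, and those of 4 lay above it, Srebf2, Insig2, Mylip and Fdft1, against 18.8% of all genes. The median over all genes was -0.10 on the log2 scale, and with that median set to 0 the counts were 5 below and 4 above. In the knockout 3 lay below, Scap, Dhcr7 and Npc1 (15.0% of all genes), and 2 above, Insig1 and Lbr (10.9% of all genes).

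**Figure D3:**
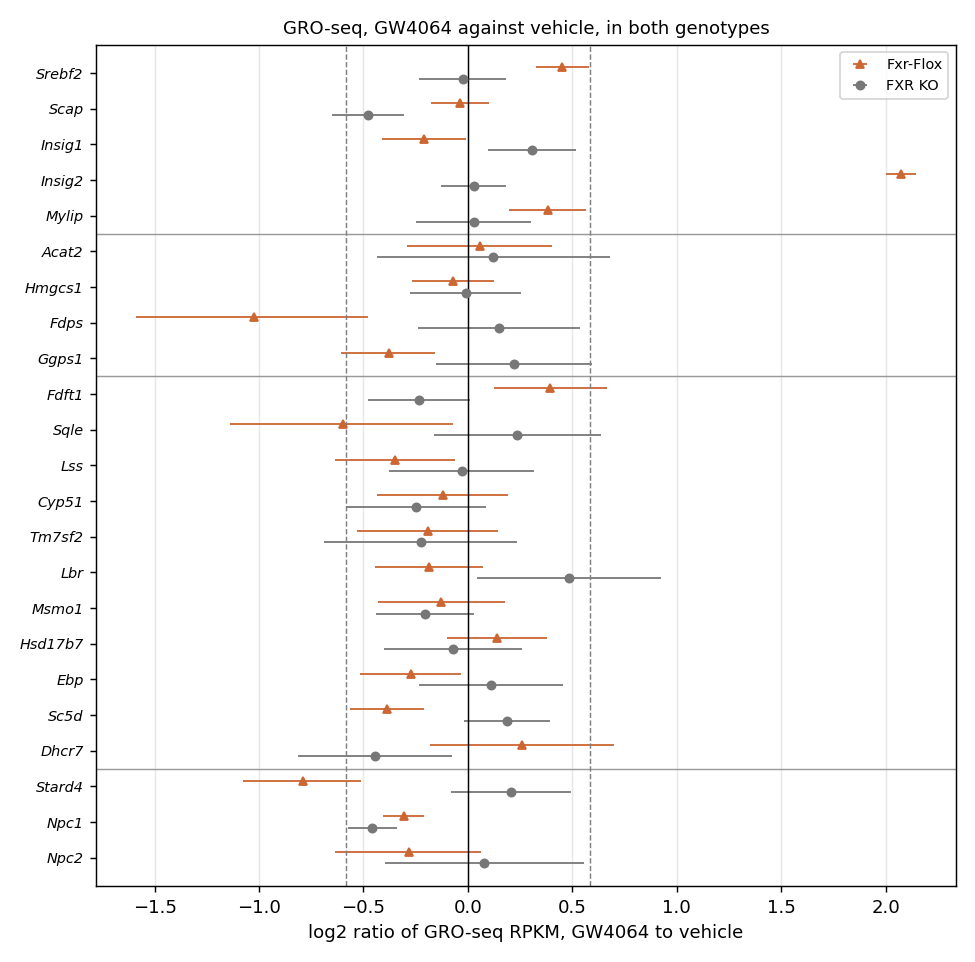
GRO-seq log2 ratio of GW4064 to vehicle for 23 genes, with no pseudocount; triangles are Fxr-Flox, circles FXR KO, bars the 95% counting interval, and dashed lines mark 1.5-fold, which the counts in the text apply after adding 0.1 RPKM. Insig2 stands apart at 2.07 in Fxr-Flox and 0.03 in the knockout.

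RNA-seq and GRO-seq of Fxr-Flox shared a direction in 14 of 23 genes by sign alone. Acat2, Dhcr7, Fdft1, Hsd17b7, Insig2 and Srebf2 were above 0 in both assays, and Fdps, Ggps1, Insig1, Lss, Npc1, Npc2, Scap and Stard4 were below 0 in both. A further 8 were above 0 in RNA-seq and below 0 in GRO-seq, and 1, Mylip, the reverse. Many of these values are near 0, and the assays come from different mice. Over all genes 49.2% were above 0 in RNA-seq and 37.4% in GRO-seq of Fxr-Flox. The share of all genes with a shared direction was not counted, so 14 of 23 is not read as agreement.

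More genes of the set were past 1.5-fold between genotypes than between treatments. In vehicle-treated liver, 9 of 23 genes, 39.1%, were past 1.5-fold higher in the knockout than in Fxr-Flox and 0 were lower, where 6.14% of all 9656 genes were higher and 6.08% lower. The 9 were the control genes Scap and Insig1, the enzymes Fdps, Fdft1, Sqle, Cyp51, Msmo1 and Dhcr7, and Npc1. With GW4064, 11 of 23 were higher and 1, Insig2, was lower, where 6.87% of all 9547 genes were higher and 8.24% lower. These comparisons share no library, and 8 of the 23 genes, 34.8%, were higher in both, where 1.89% of all genes were higher in both and 1.69% lower in both. They were Insig1, Fdps, Fdft1, Sqle, Cyp51, Msmo1, Dhcr7 and Npc1. The median log2 ratio over the 23 genes was 0.48 with vehicle and 0.46 with GW4064, against -0.07 and 0.00 over all genes. With the median of all ratios set to 0, the vehicle split over all genes became 716 higher and 426 lower, against 593 and 587, and that of the set 10 higher and 0 lower.

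With vehicle, enzymes of sterol formation gave the largest ratios between genotypes, and with GW4064 Fdps did. Msmo1 (chr8:64718123-64733578, minus strand), a sterol methyl oxidase, measured 1.03 and 0.941 RPKM in Fxr-Flox and 4.09 and 3.55 RPKM in the knockout, vehicle first. Knockout to Fxr-Flox was 3.98-fold with vehicle (counting interval 3.35 to 4.74) and 3.77-fold with GW4064 (3.09 to 4.62). Dhcr7 (chr7:143823167-143848410, plus strand), 7-dehydrocholesterol reductase of the last steps, measured 0.266 and 0.318 RPKM in Fxr-Flox and 1.15 and 0.844 RPKM in the knockout, or 4.32-fold (3.32 to 5.65) and 2.65-fold (1.98 to 3.57). In RNA-seq, vehicle first, Msmo1 was at 2.30, 2.93, 2.22 and 3.52 RPKM. Dhcr7 was at 0.933, 0.759, 0.814 and 0.881 RPKM there, and the treatment groups of both genes overlapped. In GRO-seq each knockout library was above each Fxr-Flox library.

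Squalene formation and oxidation followed. Fdft1 (chr14:63145151-63177887, minus strand), squalene synthase, measured 0.504 and 0.663 RPKM in Fxr-Flox and 1.80 and 1.53 RPKM in the knockout, ratios of 3.57 (3.0 to 4.25) and 2.31 (1.92 to 2.77). In RNA-seq Fdft1 was at 1.29 and 1.47 RPKM with vehicle and 1.33 and 1.94 RPKM with GW4064. Sqle (chr15:59315092-59331193, plus strand) measured 0.408 and 0.270 RPKM in Fxr-Flox and 1.196 and 1.41 RPKM in the knockout, ratios of 2.93 (2.19 to 3.94) and 5.22 (3.68 to 7.52). The Sqle GW4064 to vehicle ratio was 0.662 in Fxr-Flox (0.454 to 0.952) and 1.18 in the knockout (0.893 to 1.56). The difference was not tested.

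Cyp51 (chr5:4080674-4104697, minus strand), lanosterol 14-demethylase, measured 0.620 and 0.570 RPKM in Fxr-Flox and 1.34 and 1.13 RPKM in the knockout, ratios of 2.16 (1.75 to 2.66) and 1.97 (1.55 to 2.51). Its RNA-seq values were 1.85 and 2.003 RPKM with vehicle and 1.64 and 2.69 RPKM with GW4064, which enclosed the vehicle ones. Fdps gave ratios of 2.81 (2.13 to 3.71) with vehicle and 6.32 (4.37 to 9.33) with GW4064, the latter on 39 reads in the Fxr-Flox library. Insig1 was 1.78-fold higher with vehicle (1.55 to 2.05) and 2.55-fold with GW4064 (2.20 to 2.95). Fdps was the only 1 of 4 tested genes in the stretch up to farnesyl and geranylgeranyl diphosphate past 1.5-fold higher, in both treatments. In the stretch to sterols, 5 of 11 were with vehicle and 7 of 11 with GW4064, where 6.14% and 6.87% of all genes were.

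Npc1 measured 3.35 and 2.703 RPKM in Fxr-Flox and 5.93 and 4.32 RPKM in the knockout, ratios of 1.77 (1.66 to 1.90) and 1.60 (1.47 to 1.74), and it was lower with GW4064 in both genotypes, at 0.808 (0.754 to 0.865) and 0.729 (0.672 to 0.790). Scap passed 1.5-fold with vehicle alone, at 1.79 (1.62 to 1.97) against 1.32 (1.17 to 1.48) with GW4064. Lss, Sc5d and Stard4 passed it with GW4064 alone. Sc5d, the sterol C5-desaturase, measured 5.04 and 3.85 RPKM in Fxr-Flox and 7.19 and 8.18 RPKM in the knockout, ratios of 1.43 (1.25 to 1.62) and 2.13 (1.85 to 2.44). In RNA-seq Sc5d lay between 9.07 and 10.3 RPKM in all 4 libraries, at 9.303 and 9.82 with vehicle and 9.07 and 10.3 with GW4064. Lss measured 0.757 and 0.595 RPKM in Fxr-Flox and 1.097 and 1.07 RPKM in the knockout, ratios of 1.45 (1.18 to 1.78) and 1.80 (1.43 to 2.28). Stard4 gave 1.53 (1.27 to 1.83) and 3.04 (2.46 to 3.77). Stard4 with vehicle lay just past 1.5-fold before 0.1 RPKM was added and just inside it after.

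Not every gene of the route was past 1.5-fold higher in the knockout. Counting intervals lay above 1 in 16 of 23 genes with vehicle and 15 with GW4064, and below 1 in 2 with each. Over all genes, those of 1613 of 9656 lay above and 2615 below with vehicle, and 1819 of 9547 above and 1907 below with GW4064. Srebf2 itself was at 1.05-fold with vehicle (0.934 to 1.19) and 0.756-fold with GW4064 (0.670 to 0.853). Hmgcs1, which makes HMG-CoA, was at 1.26 (1.07 to 1.47) and 1.31 (1.11 to 1.55), below the 1.5-fold mark in both. Ggps1, geranylgeranyl diphosphate synthase, was lower with vehicle, at 0.700 (0.565 to 0.861), and at 1.06 (0.853 to 1.31) with GW4064. Lbr, which doubles as a sterol reductase and a nuclear envelope protein, was at 0.667 (0.513 to 0.859) and 1.06 (0.831 to 1.34). Acat2 and Tm7sf2 had intervals that reached or nearly reached 1 in both treatments. Mylip, Hsd17b7, Ebp and Npc2 lay between 0.969 and 1.44. Of the 6 genes below the filter, Nsdhl was at 0.212 and 0.191 RPKM in Fxr-Flox and 0.627 and 0.552 RPKM in the knockout on 81 to 129 reads, and Idi1 at 0.229 and 0.153 against 0.602 and 0.465 RPKM on 11 to 22 reads. With the filter at a mean of 0.1 RPKM, 13 of 28 genes were past 1.5-fold higher with vehicle and 0 lower, where 5.63% of all genes were higher and 6.83% lower.

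**Figure D4:**
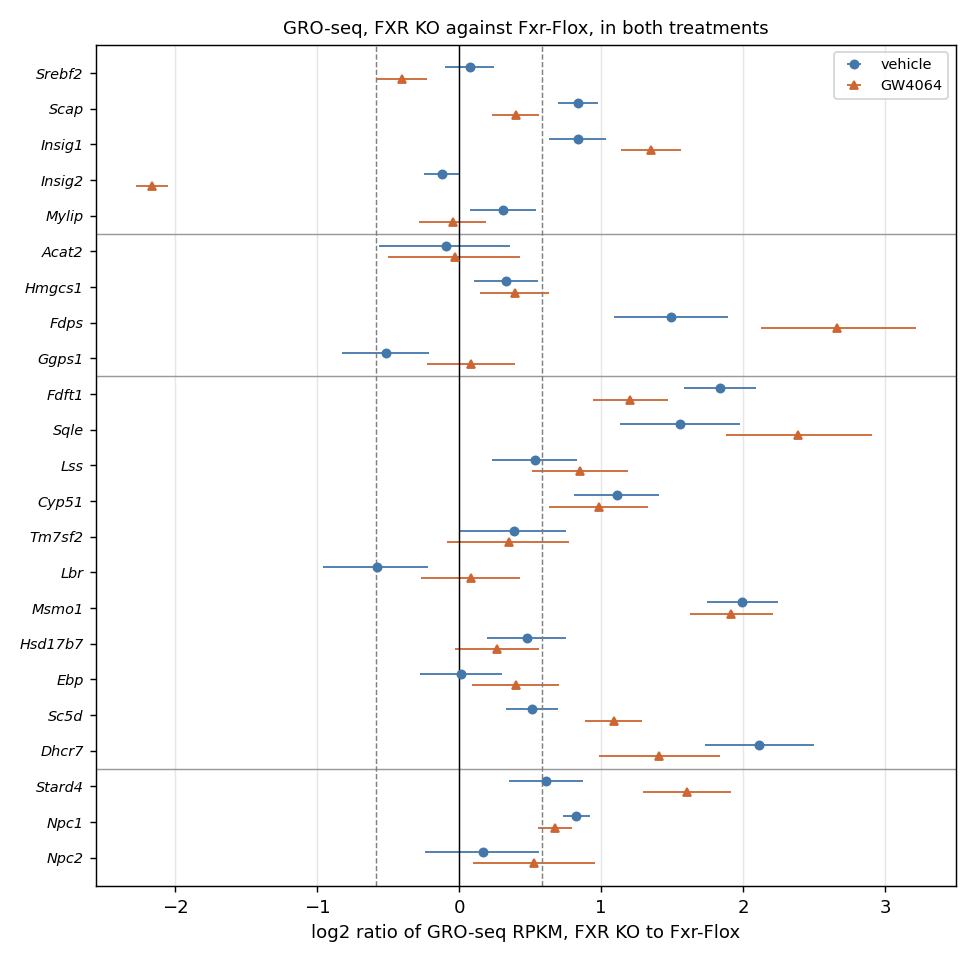
GRO-seq log2 ratio of FXR KO to Fxr-Flox for 23 genes, with no pseudocount; circles are vehicle, triangles GW4064, bars the 95% counting interval, and dashed lines mark 1.5-fold, which the counts in the text apply after adding 0.1 RPKM. Msmo1, Fdft1, Sqle, Cyp51, Dhcr7, Fdps, Insig1 and Npc1 lie right of 0 in both treatments, while Insig2 lies far left of 0 with GW4064 alone.

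The summed level of hepatocyte markers was also higher in the knockout libraries. Of 6 hepatocyte markers, 3 were past 1.5-fold higher with vehicle (6.14% of all genes) and 4 with GW4064 (6.87% of all genes), and 0 were lower in either. The summed level of the 6 was 516.1 and 568.7 RPKM in Fxr-Flox and 881.6 and 849.4 RPKM in the knockout, vehicle first. Alb and Apoa1 were past 1.5-fold higher in both treatments. Serpina1c was at 26.3 RPKM in Fxr-Flox and 24.0 in the knockout with vehicle, and at 19.5 and 31.9 with GW4064. Ttr was at 63.1 and 64.8 with vehicle and at 35.9 and 65.1 with GW4064. Tat was at 71.9 and 111.2 with vehicle and at 137.2 and 103.3 with GW4064. Cps1 was at 49.0 and 65.4 with vehicle and at 38.2 and 51.0 with GW4064. The median log2 ratio of the 6 markers was 0.52 with vehicle and 0.69 with GW4064, against 0.48 and 0.46 over the 23 genes. Summed levels in Fxr-Flox and in the knockout were 4.52 to 5.38 and 4.46 to 6.13 RPKM for 4 Kupffer cell markers, 3.59 to 4.21 and 3.29 to 3.32 for 4 stellate cell markers, 9.77 to 12.1 and 8.63 to 10.96 for 4 endothelial markers, and 1.31 to 1.79 and 1.62 to 2.08 for 4 cholangiocyte markers. Of 4 enterocyte markers, the defining Lct and Vil1 were at or under 0.07 RPKM in every GRO-seq library, and Apoa4, which liver also makes, was at 8.02 and 28.0 RPKM in Fxr-Flox and 106.8 and 38.6 RPKM in the knockout. The part of these levels, and of the lower depth of the knockout libraries, in the genotype difference was not tested. With 1 library per group, the genotype cannot be told apart from the preparation of that library.

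Other genes of the pathway, 28 in a wider list of SREBP processing, protein degradation, lipoprotein handling, sterol storage and isoprenoid use, were called between genotypes at about the rate of all genes. Of 23 of them that passed the GRO-seq filter, 0 were higher and 1 lower in the knockout with vehicle (6.14% and 6.08% of all genes), and 1 was higher and 2 lower with GW4064 (6.87% and 8.24% of all genes). In Fxr-Flox 3 of the 23 were past 1.5-fold higher with GW4064: Gramd1c, a sterol carrier at membrane contacts, Lrp1, a lipoprotein receptor, and Lipa, the lysosomal acid lipase. None was past it lower, and over all genes 6.40% were higher and 7.17% lower. None of the 23 was past it in the knockout in either direction (2.88% and 3.44% of all genes). In RNA-seq, 1 of 24 tested rose and 0 fell in limma (2.13% and 1.15% of all genes), against 3 and 0 in limma-voom (4.58% and 4.22%). Gramd1c measured 1.83 and 1.56 RPKM with vehicle and 4.34 and 3.98 RPKM with GW4064, a log2 change of 1.25 (SE 0.10, limma, adjusted p = 0.0254).

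Of 8 genes tied to the oxysterol receptors LXR, 1 rose and 0 fell in RNA-seq by limma, and limma-voom called 1 higher, Abcg5, and 1 lower, Abca1, a cholesterol exporter (log2 change -0.39, limma-voom, adjusted p = 0.0191). Over all genes limma called 2.13% higher and 1.15% lower, and limma-voom 4.58% and 4.22%. Abcg5, a sterol exporter into bile, measured 4.24 and 4.72 RPKM with vehicle and 7.32 and 7.15 RPKM with GW4064, a log2 change of 0.68 (SE 0.08, limma, adjusted p = 0.0386). Its row overlaps that of Abcg8, so reads may be shared. In GRO-seq of 7 such genes, 0 were higher and 0 lower in the knockout with vehicle (6.14% and 6.08% of all genes). With GW4064, 2 were higher and 1 lower (6.87% and 8.24% of all genes).

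Promoter sequences were set beside these values, from RefSeq on GRCm38.p6, the assembly behind mm10, as windows of 300 bases that run from upstream of each start to just past it. Of the 29 genes 24 matched. Fdft1, Fdps, Npc1, Sqle and Stard4 did not, and all of these but Stard4 were past 1.5-fold higher in the knockout in both treatments. The letters TCACNCCAC, a form of the sterol regulatory element to which SREBPs bind, were found on either strand in 1 of the 24, Hmgcs1, and in 1.44% of all 27025 genes. The looser TCACNCNAC, which includes the former, was found in 2, Hmgcs1 and Nsdhl, and in 3.15% of all genes. CCAAT, the letters of the NF-Y box that often accompanies SREBP sites, was found in 22 of the 24, against 41.06% of all genes. Acat2 and Scap lacked it. A gene counts if any of its windows holds the letters. By window CCAAT was in 22 of 30, against 37.41% of all windows. GTCANTGAC, letters of the inverted repeat bound by FXR with RXR, was found in 0 of the 24 and in 0.46% of all genes. A match of letters is a description of the window and not a bound site. Other spellings of the sterol element were not searched, so a window without these letters may still hold such a site. The inverted repeat letters do not match the FXR site of Fincor, the enhancer RNA that the paper found to be induced by GW4064. The paper tested that site in a reporter assay, and this search could not have found it. Only 0.46% of all genes held the letters, so 0 of the 24 does not show that FXR sites are absent.

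The Hmgcs1 window is shown because it alone holds the strict sterol element letters. The windows of Msmo1 and Cyp51 are shown because these genes were higher in the knockout in both treatments. They hold CCAAT without the sterol element letters searched. Each is 5′ to 3′ on the gene's strand, with the sterol element letters and CCAAT, or ATTGG where it lies on the other strand, in capitals. Hmgcs1 is chr13:119690101-119690400 (plus), Msmo1 chr8:64733529-64733828 (minus) and Cyp51 chr5:4104648-4104947 (minus).
Hmgcs1: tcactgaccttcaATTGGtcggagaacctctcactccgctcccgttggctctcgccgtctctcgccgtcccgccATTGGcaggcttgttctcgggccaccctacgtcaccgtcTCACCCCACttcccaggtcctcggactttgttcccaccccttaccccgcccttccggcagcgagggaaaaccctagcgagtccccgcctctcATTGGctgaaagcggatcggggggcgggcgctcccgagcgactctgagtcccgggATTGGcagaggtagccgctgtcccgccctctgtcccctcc
Msmo1: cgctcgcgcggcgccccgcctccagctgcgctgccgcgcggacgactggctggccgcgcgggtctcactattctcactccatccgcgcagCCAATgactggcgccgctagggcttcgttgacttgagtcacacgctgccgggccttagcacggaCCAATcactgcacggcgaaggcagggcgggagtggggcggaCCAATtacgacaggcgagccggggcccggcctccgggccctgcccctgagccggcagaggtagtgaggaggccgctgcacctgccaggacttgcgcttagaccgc
Cyp51: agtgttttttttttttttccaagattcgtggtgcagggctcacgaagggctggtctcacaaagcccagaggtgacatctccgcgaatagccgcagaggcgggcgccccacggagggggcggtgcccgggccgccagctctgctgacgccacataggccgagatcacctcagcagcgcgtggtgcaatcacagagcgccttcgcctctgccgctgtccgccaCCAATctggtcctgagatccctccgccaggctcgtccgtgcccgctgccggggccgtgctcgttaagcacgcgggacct

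Insig2, whose GRO-seq level moved most with GW4064, has several starts in RefSeq. The window at the start of the deposited row (chr1:121327629-121327928, minus) held no capitals, while that of a start further upstream (chr1:121332540-121332839, minus), outside the deposited row, held CCAAT letters 3 times, and neither held the sterol element letters or GTCANTGAC. The window of a start between these (chr1:121327975-121328274, minus), not shown, held none of the letters searched. It does hold ggtctttgacc, letters shared with the Fincor site named above. Those letters were not part of the search. They were not counted in the other windows or in all genes, so this match has no background beside it. The RPKM values do not tell which start was used.
Insig2 row start: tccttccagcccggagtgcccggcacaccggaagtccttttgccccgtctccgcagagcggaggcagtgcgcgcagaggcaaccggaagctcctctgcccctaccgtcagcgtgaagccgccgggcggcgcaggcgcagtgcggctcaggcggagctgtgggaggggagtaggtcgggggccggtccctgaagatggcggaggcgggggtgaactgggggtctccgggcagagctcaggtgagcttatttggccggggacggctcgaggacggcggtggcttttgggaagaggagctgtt
Insig2 upstream start: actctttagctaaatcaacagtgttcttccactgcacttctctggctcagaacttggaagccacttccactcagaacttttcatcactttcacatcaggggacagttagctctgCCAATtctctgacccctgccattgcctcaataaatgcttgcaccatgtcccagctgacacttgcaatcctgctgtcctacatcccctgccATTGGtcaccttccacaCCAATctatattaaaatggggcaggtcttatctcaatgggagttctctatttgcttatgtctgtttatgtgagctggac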

How the data were processed

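The authors deposited 1 table of RPKM values for 8 libraries. They mapped reads to mm10 with STAR 2.7.3a and quantified genes with HOMER, and the submitters' processing notes also list bcl2fastq and FastQC. The library kit is Kapa HyperPrep in the methods and a stranded TruSeq kit in the labels. Row lengths equal the gene span in 24965 of 25124 rows, so introns are included. Read totals per library were rebuilt as the number that makes RPKM times length whole, and 100% of the values tested came out whole within 0.15 reads. Listed genes held 89.2% to 92.4% of these totals.

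RNA-seq was tested with limma 3.58.1 in R 4.3.3 on log2(RPKM + 0.1), which understates the change of low genes. The fit took the 11408 genes whose mean reached 0.5 RPKM, with eBayes at trend=TRUE and treatment as the only term, and Benjamini-Hochberg adjustment over all of them at 0.05. Limma-voom on the rebuilt reads was the alternative. The p-values measure the spread between pooled libraries. GRO-seq ratios used the same added 0.1 RPKM, a mean of at least 0.5 RPKM and 20 reads in a library of the pair, with exact Clopper-Pearson 95% counting intervals and no test. Intervals cover counting error only, since molecules were not tagged. The scripts were tested on simulated data.

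The genes and gene lists were chosen with earlier results of these data known. Every gene of the set is named; values in every library are given for those called in RNA-seq by either tool, those past 1.5-fold in a GRO-seq comparison, and Srebf2, Scap, Insig1 and Insig2, and a few further genes were given in full after their values were seen. Other settings changed the pseudocount to 0.01 or 1 RPKM, the filter to 0.1 or 1 RPKM or none, the scaling to quantile normalization or centring on the median, and eBayes to trend=FALSE or robust=TRUE. Further settings were a replicate block, each library left out, 2-fold in place of 1.5-fold and adjusted p under 0.01. Rows of at least 300 bases, limma-voom with the block, limma-voom with each library left out, counting intervals after centring, and library totals without the densest 1% of rows were chosen after seeing the data. Other steps ran in Python 3.11.15 (pandas 2.3.3, numpy 2.4.6, matplotlib 3.10.9, scipy 1.17.1). Enhancer RNA regions and the knockdown RNA-seq of the study were not analysed here.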

Additional observations from a re-analysis of the deposited data

Results flagged for a closer look

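Insig1 moved in opposite directions with GW4064 in the GRO-seq libraries of the 2 genotypes. It was lower in Fxr-Flox (5.12 to 4.43 RPKM) and higher in the knockout (9.12 to 11.3 RPKM), and the log2 ratios differed by -0.51, Fxr-Flox minus knockout. The Fxr-Flox ratio lay below 1 by more than counting error with the deposited scaling (0.752 to 0.993) and not with the median of all ratios set to 0 (0.805 to 1.06). Each group has 1 library, so the difference was not tested.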

How the results depend on the processing

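In RNA-seq the count of 1 gene called higher became 0 at an adjusted p under 0.01, with the filter at 0.1 RPKM, with no filter, with trend=FALSE and with the replicate block, and 2 (Insig2 and Srebf2) in limma-voom with the replicate block. It ranged from 0 to 2 when each library was left out, over both tools; the lone library of an arm is then assumed to vary like the other group. The count called lower was 0, and 1 (Npc1) in limma-voom with and without the block. Replicate numbers showed little sign of pairing the samples, though pairing was not excluded. Over all 11408 genes the deviations of same-numbered libraries correlated at -0.02 (0.098 over rows of at least 300 bases and 0.22 over the 27 genes). Limma with the block called 0 genes in all, higher or lower, while limma-voom with the block called 552 higher and 511 lower, against 522 and 481 without it. Of 27 genes, 11 kept their direction in all 21 settings that refit it. Leaving out 1 library turned the log2 change of 16, with ranges of -0.23 to 0.48 for Cyp51, -0.14 to 0.16 for Dhcr7, -0.035 to 0.050 for Ebp, -0.051 to 0.50 for Fdft1, -0.58 to 0.32 for Fdps, -0.10 to 0.035 for Ggps1, -0.051 to 0.30 for Hmgcs1, -0.067 to 0.97 for Idi1, -0.25 to 0.028 for Insig1, -0.12 to 0.21 for Lbr, -0.33 to 0.10 for Lss, -0.23 to 0.44 for Msmo1, -0.049 to 0.014 for Npc2, -0.076 to 0.11 for Sc5d, -0.30 to 0.73 for Sqle and -0.53 to 0.15 for Stard4; quantile normalization turned Ebp to -0.055 and Sc5d to -0.057. In GRO-seq, the 2 genes lower in Fxr-Flox became 0 with 1 RPKM added and at 2-fold. The 9 higher in the knockout with vehicle became 5 at 2-fold. The 11 with GW4064 became 7 with 1 RPKM added and 7 with the filter at 1 RPKM. The 8 in both became 5 under each of these 3 settings. The filter at 1 RPKM left 16 genes of the set in place of 23, and 6976 of all genes in place of 9513. Over all genes the count higher in both went from 180 to 37 at 2-fold, 107 with 1 RPKM added and 156 with the filter at 1 RPKM. No GRO-seq ratio past 1.5-fold changed sign when the added RPKM or the scaling changed. Depth limits the low genes most, down to 11 reads for Idi1.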
